A study of Mus musculus with 7 samples.

Results

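The clustered protocadherin genes of the mouse were compared between fibroblasts, cells under conversion to neural stem cells, neural stem cells and pluripotent lines, with 39 of 58 annotated genes measured. Genes were taken by symbol, as the Pcdha, Pcdhac, Pcdhb, Pcdhga, Pcdhgb and Pcdhgc genes that carry a number. Each measured gene was read from 1 exon row that belonged to that gene alone, its variable exon. All 22 beta genes, 8 of 14 alpha genes and 9 of 22 gamma genes had such a row. The other 19 genes (Pcdha3 to Pcdha8 and 13 Pcdhga and Pcdhgb genes) had no row of their own and were not analysed here. In all, 29417 genes had an exon row of their own.

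Protocadherins are transmembrane proteins of the cadherin superfamily, and the clustered ones give neurons a combinatorial surface code that lets a cell recognise its own branches. The clusters lie one after another on the same chromosome. In the alpha and gamma clusters each variable exon has a promoter of its own, encodes the extracellular, transmembrane and first cytoplasmic part of the protein and is spliced to constant exons that all genes of the cluster use. The beta genes consist of a single coding exon and have no constant part. The promoters are chosen through CTCF and cohesin looping to distant enhancers and are silenced by DNA methylation. The C-type genes at the end of the alpha and gamma clusters (Pcdhac1, Pcdhac2, Pcdhgc3, Pcdhgc4 and Pcdhgc5) are known to be used more evenly between neurons than the other genes.

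On the GRCm38 (mm10) build the alpha genes span chromosome 18 from 36930184 to 37187661, the beta genes from 37264938 to 37524479 and the gamma genes from 37661793 to 37841873, all on the plus strand.

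Poly(A) RNA-seq had been made from 7 cell populations, with 1 library each. MEF, embryonic fibroblasts, and iPSC, induced pluripotent stem cells, were both of strain A12 with the genotype Mbd3 flox/-. The day 6 cells and both lines of OSKM NSC, neural stem cells converted with OSKM (Oct4, Sox2, Klf4 and Myc), were B6/129, from a Rosa26-TdTomato B6 female and a Col1a-OSKM 129 male. Brain NSC came from BDF2 embryos, and ESC were the line v6.5. Day 6 cells had received doxycycline, which switches on the factors, and 4-hydroxytamoxifen (4OHT), which activates the Nanog-CreER recombinase and so marks cells that used the Nanog promoter with tdTomato. They were sorted as tdTomato positive at day 6. The Tomato-positive and Tomato-negative OSKM NSC had been subcloned mechanically. The ESC were described as grown with MEF feeders, the iPSC with the same words and question marks. The age of the brain NSC embryos was given as E12.5 in one place and E13.5 in another. With 1 library a group no difference between groups could be tested, strain cannot be told apart from group, and each interval below is a 95% interval that covers counting error only.

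The values are RPKM, a read count divided by exon length and by library depth. The depth read from the steps of the values ran from 19 megareads in Tomato-positive OSKM NSC to 58 megareads in iPSC. The labels were set against 7 lists of cell type markers. The summed RPKM of 11 neural stem cell markers was 7948 and 11974 in Tomato-positive and Tomato-negative OSKM NSC, 6508 in brain NSC and 72.1 to 262 elsewhere. Fabp7 alone gave 6511, 8761 and 2394 RPKM in these NSC libraries, and the order of their sums rests on it. The sum of 7 pluripotency markers was 1078 RPKM at day 6, 7072 in iPSC, 9076 in ESC and at most 11.3 elsewhere. At day 6, 886 of the 1078 came from Pou5f1 alone, the gene of the factor Oct4. Nanog was at 67.2 RPKM there, against 772 in iPSC and 765 in ESC. Fibroblast and feeder markers, 12 genes, summed to 40402 RPKM in MEF, 5068 in ESC, 2370 in Tomato-positive OSKM NSC, 618 in iPSC, 380 at day 6, 207 in Tomato-negative OSKM NSC and 75.3 in NSC from brain. The MEF library also held leukocyte markers at 4501 RPKM, against 8.85 to 166 elsewhere, and muscle markers at 296 against 0.229 to 26.4. The epithelial markers were highest at day 6, at 1523 RPKM, and neuron markers summed to 129 to 676 RPKM, where 609 of the 676 at day 6 came from Stmn2 alone. In bulk RNA, fewer cells of a type and less RNA per cell cannot be told apart.

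By summed level all 3 clusters were high in the NSC libraries, intermediate in MEF and low at day 6 and in iPSC and ESC. The alpha genes summed to 2.24 RPKM in MEF, 0.0817 at day 6, 9.78 in the Tomato-positive and 17.6 in the Tomato-negative OSKM line, 12.1 in NSC from brain, 0.231 in iPSC and 0.184 in ESC. The beta genes summed to 14.7 RPKM in MEF, 2.37 at day 6, 74.0 in the Tomato-positive and 168 in the Tomato-negative OSKM line, 159 in NSC from brain, 0.836 in iPSC and 2.87 in ESC. The gamma genes summed to 132 RPKM in MEF, 47.9 at day 6, 275 in the Tomato-positive and 543 in the Tomato-negative OSKM line, 377 in NSC from brain, 27.4 in iPSC and 36.0 in ESC. Gamma had the highest sum in each of the 7 libraries and alpha the lowest, although 22 beta genes enter the sum and only 9 gamma genes. In brain NSC this rank rests on Pcdhgc3 alone, at 311 of the 377 RPKM, against 159 for beta. Other genes overlap 58.9% of the bases of the Pcdhgc3 row. Without the C-type genes gamma summed to 59.7 RPKM in the Tomato-positive and 115 in the Tomato-negative OSKM line and 29.1 in brain NSC. These sums were below those of beta, while in the other 4 libraries gamma stayed above beta. With all measured genes of a cluster the 3 NSC sums were above the other 4. Without the C-type genes the gamma sum in brain NSC, 29.1 RPKM, was below that in MEF, 34.4 RPKM.

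**Figure D1:**
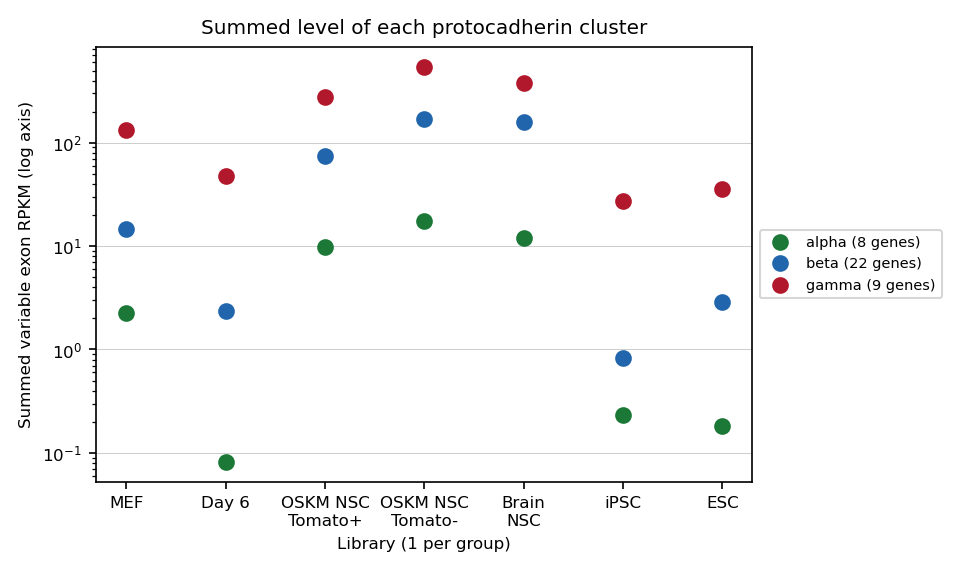
Summed variable exon level of the alpha, beta and gamma clusters in each library, in RPKM on a log axis, with 1 point per cluster and library. The 3 NSC libraries hold the highest sum of each cluster, and the gamma sum ranges from 27.4 RPKM in iPSC to 543 in Tomato-negative OSKM NSC.

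Genes of a cluster resemble each other, and reads from a stretch shared by several could be placed on any of them. The share of 50-base words of the variable exon that also occur in another clustered gene had a median of 10.2% for the 8 alpha genes (0 to 15.1%), 4.26% for the 22 beta genes (0 to 12.0%) and 0 for the 9 gamma genes (0 to 11.9%). It was 0 for all 5 C-type genes, Pcdhb1, Pcdhga11 and Pcdhga12, and 11.9% for Pcdhgb6.

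The number of genes in use followed the same division. At least 2 RPKM was reached by 12 of 39 genes in MEF, 1 at day 6, 23 in the Tomato-positive and 32 in the Tomato-negative OSKM line, 31 in NSC from brain, 4 in iPSC and 3 in ESC. No read was counted for 17 of the 39 genes at day 6, 8 in ESC, 6 in iPSC, 3 in MEF, and 1 each in Tomato-positive OSKM NSC and brain NSC. All 39 had reads in Tomato-negative OSKM NSC. The 1 gene at 2 RPKM or more at day 6 was Pcdhgc3. The level was above that of all 4 other libraries in each NSC library for 7 of 8 alpha genes, the exception being Pcdha1, and for 21 of 22 beta genes, the exception being Pcdhb1. It was so for 4 of 9 gamma genes, Pcdhga3, Pcdhgc3, Pcdhgc4 and Pcdhgc5.

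**Figure D2:**
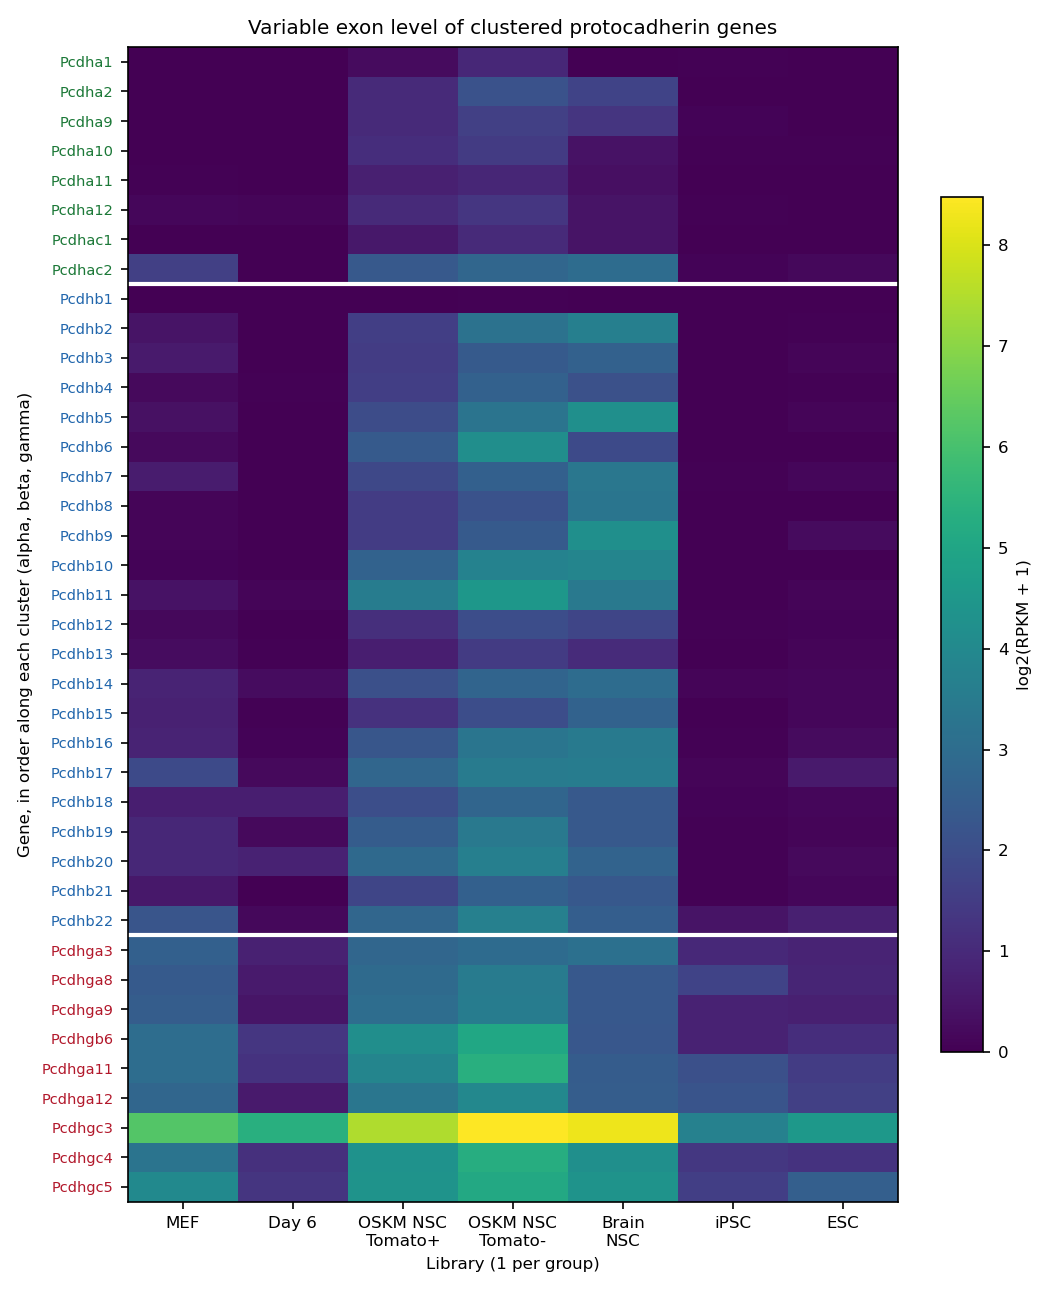
Heat map of log2(RPKM + 1) of the variable exon of 39 clustered protocadherin genes (rows, in order along each cluster, white lines between clusters) in 7 libraries (columns). The beta rows are dark at day 6, in iPSC and in ESC and light in the 3 NSC libraries, and Pcdhgc3 is the lightest row in every library.

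In the alpha cluster Pcdhac2 had the largest share in every library but day 6 and iPSC. Pcdhac2, a C-type gene known for the tiling of serotonergic axons, was at 2.03 RPKM in MEF, 0 at day 6, 4.19 in the Tomato-positive and 6.01 in the Tomato-negative OSKM line, 6.94 in NSC from brain, 0.0538 in iPSC and 0.143 in ESC. It held 90.5% of the alpha sum in MEF, 42.8% and 34.1% in Tomato-positive and Tomato-negative OSKM NSC, 57.3% in brain NSC and 77.7% in ESC, and had the widest range of the 8 alpha genes. The 0 at day 6 stands against 234 reads in MEF, which makes day 6 at least 79.7-fold lower with 3 reads as the floor of a 0. Pcdhac2 was the only alpha gene above 0.2 RPKM in MEF.

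The other alpha genes were near 0 outside the NSC libraries. Pcdha2 was at 0.0186 RPKM in MEF, 0 at day 6, 1.04 in the Tomato-positive and 3.42 in the Tomato-negative OSKM line, 2.30 in NSC from brain and 0 in iPSC and ESC. Pcdha9 was at 0 in MEF and at day 6, 1.02 RPKM in the Tomato-positive and 2.02 in the Tomato-negative OSKM line, 1.49 in NSC from brain, 0.0695 in iPSC and 0 in ESC. Both encode ordinary alternate isoforms, and no library outside the NSC held more than 10 reads of either. The C-type gene Pcdhac1 stayed low throughout, at 0.0182 RPKM in MEF, 0 at day 6, 0.475 in the Tomato-positive and 1.04 in the Tomato-negative OSKM line, 0.365 in NSC from brain, 0.0142 in iPSC and 0 in ESC.

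Of the 8 alpha genes, 5 stood higher in both OSKM NSC than in brain NSC, Pcdhac1 among them. Pcdha10 was at 1.17 RPKM in Tomato-positive OSKM NSC, 1.81 in Tomato-negative OSKM NSC and 0.342 in NSC from brain, and between 0 and 0.0410 in the other 4 libraries. Pcdha12 was at 1.01, 1.54 and 0.371 RPKM in the same 3 NSC libraries, 0.121 in MEF, 0.0817 at day 6, 0.0360 in iPSC and 0 in ESC, and Pcdha11 at 0.682, 0.895 and 0.278 RPKM and at most 0.0371 elsewhere. Pcdha1, at the start of the cluster, was at 0.198 RPKM in the Tomato-positive and 0.917 in the Tomato-negative OSKM line and rested on 1 read in brain NSC, at 0.0155 RPKM. The antisense gene Gm10545 covers 97.8% of the Pcdha11 exon and reaches into 21.5% of the Pcdha12 exon. The library kit does not mark strand, so its reads cannot be told apart from theirs, and Gm10545 itself was at 0.604 RPKM in Tomato-positive OSKM NSC, 0.901 in Tomato-negative OSKM NSC, 0.298 in NSC from brain and at most 0.0447 elsewhere.

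The beta genes were spread evenly within an NSC library, and their order differed between libraries. The effective number of beta genes, the number of equally used genes that would give the same spread, was 17.3 in Tomato-positive OSKM NSC, 17.7 in Tomato-negative OSKM NSC and 17.5 in NSC from brain, against 12.3 in MEF, 13.0 in ESC, 8.77 in iPSC and 6.87 at day 6. Pcdhb22 led in MEF, iPSC and ESC, Pcdhb20 at day 6, Pcdhb11 in both OSKM NSC and Pcdhb9 in brain NSC.

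Pcdhb11 had the widest range of the 22 beta genes. It was at 0.338 RPKM in MEF, 0.0902 at day 6, 10.7 in the Tomato-positive and 21.6 in the Tomato-negative OSKM line, 9.87 in NSC from brain, 0.0191 in iPSC and 0.0945 in ESC. The 3 NSC values were all far above the other 4. Pcdhb10 was at 0.0548 RPKM in MEF, 0 at day 6, 5.32 in the Tomato-positive and 12.7 in the Tomato-negative OSKM line, 13.545 in NSC from brain, 0.00607 in iPSC and 0.0172 in ESC. Only 7 reads in MEF, 2 in ESC and 1 in iPSC stood behind the low values. Pcdhb6 was at 0.163 RPKM in MEF, 0 at day 6, 4.23 in the Tomato-positive and 17.5 in the Tomato-negative OSKM line, 2.72 in NSC from brain and 0 in iPSC and ESC.

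Pcdhb9 and Pcdhb5 were highest in brain NSC. Pcdhb9 was at 0.0873 RPKM in MEF, 0 at day 6, 1.83 in the Tomato-positive and 4.23 in the Tomato-negative OSKM line, 17.8 in NSC from brain, 0 in iPSC and 0.176 in ESC. Pcdhb5 was at 0.296 RPKM in MEF, 0 at day 6, 2.96 in the Tomato-positive and 8.50 in the Tomato-negative OSKM line, 17.5 in NSC from brain, 0.0195 in iPSC and 0.0897 in ESC. Pcdhb8 was at 0.0855 RPKM in MEF, 0 at day 6, 1.84 in the Tomato-positive and 3.44 in the Tomato-negative OSKM line, 8.86 in NSC from brain, 0 in iPSC and 0.0208 in ESC. The brain NSC level of all 3 lay above that of both OSKM NSC.

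The beta genes that led in fibroblasts lie towards the end of the cluster. Pcdhb22, the last of the 22, was at 3.67 RPKM in MEF, 0.128 at day 6, 5.97 in the Tomato-positive and 11.9 in the Tomato-negative OSKM line, 4.82 in NSC from brain, 0.349 in iPSC and 0.668 in ESC. Pcdhb17 was at 2.77 RPKM in MEF, 0.173 at day 6, 5.99 in the Tomato-positive and 10.5 in the Tomato-negative OSKM line, 10.8 in NSC from brain, 0.0844 in iPSC and 0.522 in ESC. These were the 2 beta genes above 1 RPKM in MEF. Pcdhb19 was the next in MEF, at 0.929 RPKM, and stood at 0.171 at day 6, 4.57 in the Tomato-positive and 9.78 in the Tomato-negative OSKM line, 4.13 in NSC from brain, 0.0290 in iPSC and 0.0923 in ESC.

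Pcdhb20 and Pcdhb18 were the beta genes with the highest day 6 level. Pcdhb20 was at 0.910 RPKM in MEF, 0.768 at day 6, 6.48 in the Tomato-positive and 11.7 in the Tomato-negative OSKM line, 5.48 in NSC from brain, 0.0305 in iPSC and 0.172 in ESC. Pcdhb18 was at 0.648 RPKM in MEF, 0.621 at day 6, 3.10 in the Tomato-positive and 5.85 in the Tomato-negative OSKM line, 4.20 in NSC from brain, 0.0547 in iPSC and 0.111 in ESC. At day 6 Pcdhb20 was at 84.5% and Pcdhb18 at 95.8% of the MEF level, unlike the other beta genes that led in MEF. For these 2 the interval of the day 6 to MEF ratio included 1, being 0.656 to 1.09 for Pcdhb20 and 0.756 to 1.21 for Pcdhb18. Pcdhb14, the next at day 6, was at 0.228 RPKM there, 0.814 in MEF, 3.23 in the Tomato-positive and 5.72 in the Tomato-negative OSKM line, 7.07 in NSC from brain, 0.0802 in iPSC and 0.114 in ESC. Pcdhb16, in the top 3 of ESC at 0.194 RPKM, was at 0.801 in MEF, 0.0660 at day 6, 3.82 in the Tomato-positive and 8.81 in the Tomato-negative OSKM line, 10.2 in NSC from brain and 0.0262 in iPSC.

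Among the remaining beta genes, Pcdhb2 was at 0.377 RPKM in MEF, 0 at day 6, 1.97 in the Tomato-positive and 8.17 in the Tomato-negative OSKM line, 11.6 in NSC from brain, 0.0124 in iPSC and 0.0352 in ESC. Pcdhb3, Pcdhb4, Pcdhb7, Pcdhb12, Pcdhb13, Pcdhb15 and Pcdhb21 ran from 1.799 RPKM (Pcdhb13) to 5.22 (Pcdhb4) in Tomato-negative OSKM NSC and from 1.04 (Pcdhb13) to 9.39 (Pcdhb7) in brain NSC, and were at most 0.716 RPKM in MEF. Pcdhb1, which opens the cluster, was at 0.0388 RPKM in Tomato-negative OSKM NSC, on 4 reads, at 0.00702 in iPSC, on 1 read, and at 0 in the other 5 libraries.

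Along the beta cluster the level followed the order of the genes in some libraries and not in others. Spearman's rho between level and order over the 22 genes, given as a description, was 0.77 at day 6, 0.71 in iPSC, 0.70 in ESC, 0.68 in MEF, 0.48 in Tomato-positive OSKM NSC, 0.29 in Tomato-negative OSKM NSC and -0.08 in NSC from brain. Many levels at day 6, in iPSC and in ESC rest on few reads. The 9 genes Pcdhb2 to Pcdhb10 gave 56.5% of the beta sum in brain NSC, 41.1% in Tomato-negative and 33.2% in Tomato-positive OSKM NSC, 15.7% in MEF, 19.5% in ESC, 9.17% in iPSC and 0.987% at day 6. Brain NSC was above Tomato-negative OSKM NSC in 7 of these 9 genes and in 4 of the 12 genes Pcdhb11 to Pcdhb22. This split of the cluster was chosen after the values were seen.

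**Figure D3:**
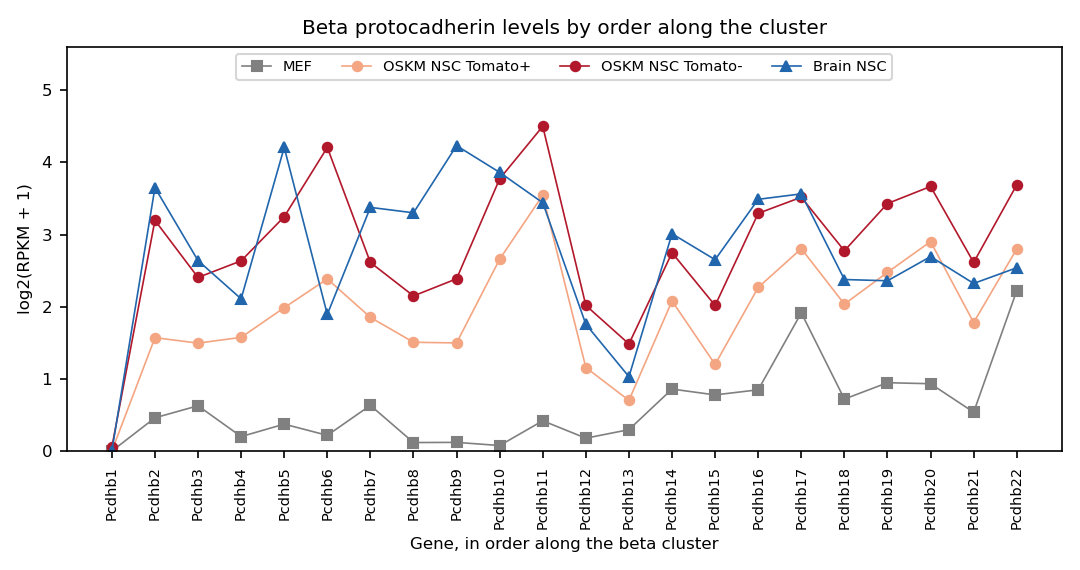
Level of the 22 beta genes as log2(RPKM + 1), in order along the cluster, in MEF, both OSKM NSC and brain NSC, with 1 point per gene and library. The brain NSC points lie above the OSKM NSC points at Pcdhb5 and Pcdhb7 to Pcdhb9 and below the Tomato-negative points from Pcdhb18 to Pcdhb22, and the MEF points are highest at Pcdhb17 and Pcdhb22.

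The gamma cluster was led by 1 gene in all 7 libraries. Pcdhgc3, a C-type gene whose protein binds Axin1 and which acts in dendrite branching, was at 73.3 RPKM in MEF, 40.1 at day 6, 177 in the Tomato-positive and 357 in the Tomato-negative OSKM line, 311 in NSC from brain, 12.2 in iPSC and 22.2 in ESC. Its share of the gamma sum was 55.7% in MEF, 83.7% at day 6, 64.3% in the Tomato-positive and 65.6% in the Tomato-negative OSKM line, 82.4% in NSC from brain, 44.7% in iPSC and 61.7% in ESC. It had the widest range of the 9 gamma genes, and the intervals of its 7 levels did not overlap. Exons of BC037039, a gene on the opposite strand, cover 58.9% of the bases of its exon row, and reads of the 2 genes cannot be told apart in these libraries.

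The other C-type gamma genes, Pcdhgc4 and Pcdhgc5, came next in MEF, Tomato-positive OSKM NSC and brain NSC. In the other 4 libraries an ordinary gamma gene was among the top 3. Pcdhgc5, whose protein has been found with GABA-A receptors, was at 15.3 RPKM in MEF, 1.48 at day 6, 19.5 in the Tomato-positive and 33.9 in the Tomato-negative OSKM line, 19.4 in NSC from brain, 1.998 in iPSC and 4.99 in ESC. Pcdhgc4, which is needed for the survival of neurons, was at 8.54 RPKM in MEF, 1.26 at day 6, 18.9 in the Tomato-positive and 38.2 in the Tomato-negative OSKM line, 17.6 in NSC from brain, 1.61 in iPSC and 1.39 in ESC. Tomato-positive OSKM NSC and brain NSC differed by less than counting error for these 2 genes, with ratios of 1.00 (0.923 to 1.09) for Pcdhgc5 and 1.07 (0.990 to 1.16) for Pcdhgc4.

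Of the 6 ordinary gamma genes, 5 were higher in MEF than in brain NSC. Pcdhga11 was at 7.18 RPKM in MEF, 1.34 at day 6, 13.47 in the Tomato-positive and 40.2 in the Tomato-negative OSKM line, 4.52 in NSC from brain, 3.16 in iPSC and 1.87 in ESC. Pcdhgb6 was at 7.09 RPKM in MEF, 1.55 at day 6, 17.2 in the Tomato-positive and 32.0 in the Tomato-negative OSKM line, 3.97 in NSC from brain, 0.739 in iPSC and 1.17 in ESC. Pcdhga12 was at 6.04 RPKM in MEF, 0.536 at day 6, 9.15 in the Tomato-positive and 14.6 in the Tomato-negative OSKM line, 4.62 in NSC from brain, 3.65 in iPSC and 2.03 in ESC. In all 3 the order ran from Tomato-negative OSKM NSC through Tomato-positive OSKM NSC and MEF to brain NSC.

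Pcdhga9 was at 4.69 RPKM in MEF, 0.400 at day 6, 7.18 in the Tomato-positive and 10.8 in the Tomato-negative OSKM line, 4.03 in NSC from brain, 0.760 in iPSC and 0.673 in ESC. Pcdhga8 was at 4.31 RPKM in MEF, 0.516 at day 6, 6.65 in the Tomato-positive and 10.4 in the Tomato-negative OSKM line, 4.10 in NSC from brain, 2.25 in iPSC and 0.850 in ESC. Pcdhga3 was at 5.06 RPKM in MEF, 0.727 at day 6, 5.99 in the Tomato-positive and 6.83 in the Tomato-negative OSKM line, 7.86 in NSC from brain, 0.992 in iPSC and 0.787 in ESC. Pcdhga3 was the 1 ordinary gamma gene with its highest level in brain NSC. The 6 ordinary gamma genes summed to 34.4 RPKM in MEF, 29.1 in brain NSC, 59.7 in the Tomato-positive and 115 in the Tomato-negative OSKM line, 11.5 in iPSC, 7.38 in ESC and 5.07 at day 6.

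The constant exons, which report the whole cluster, were also highest in the 3 NSC libraries and next in MEF, but the order of the low libraries differed from that of the variable exons. A 1968-base gamma exon row shared by 22 genes was at 228 RPKM in MEF, 38.5 at day 6, 294 in the Tomato-positive and 587 in the Tomato-negative OSKM line, 463 in NSC from brain, 52.6 in iPSC and 69.7 in ESC. The 9 measured variable exons summed to 57.6% of that level in MEF, 52.0% in iPSC, 51.6% in ESC, 93.4% in the Tomato-positive and 92.7% in the Tomato-negative OSKM line, 81.3% in NSC from brain and 125% at day 6. The constant row was lowest at day 6, where the variable sum was above those of iPSC and ESC, and at 40.1 RPKM the Pcdhgc3 row alone was above it. Of the gamma genes, 13 have no row. A 272-base alpha exon row shared by 14 genes was at 5.00 RPKM in MEF, 0.979 at day 6, 24.0 in the Tomato-positive and 38.0 in the Tomato-negative OSKM line, 20.4 in NSC from brain, 0 in iPSC and 0.627 in ESC. The alpha variable sums were lowest at day 6 and the constant row in iPSC.

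In the comparisons that follow, a ratio is log2((a + 1)/(b + 1)) of the RPKM, and a gene was counted where at least 1 compared library reached 2 RPKM and the ratio passed 2-fold. Where a side has 2 libraries, both had to pass in the same direction and the smaller ratio was used. A gene that reaches 2 RPKM only on the side where it is high is likely to pass. The counts are therefore given as a description, beside the share of all tested genes that passed the same rule. Counts by direction alone or by interval were made for the clustered genes only. No share over all genes was computed for them.

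**Figure D4:**
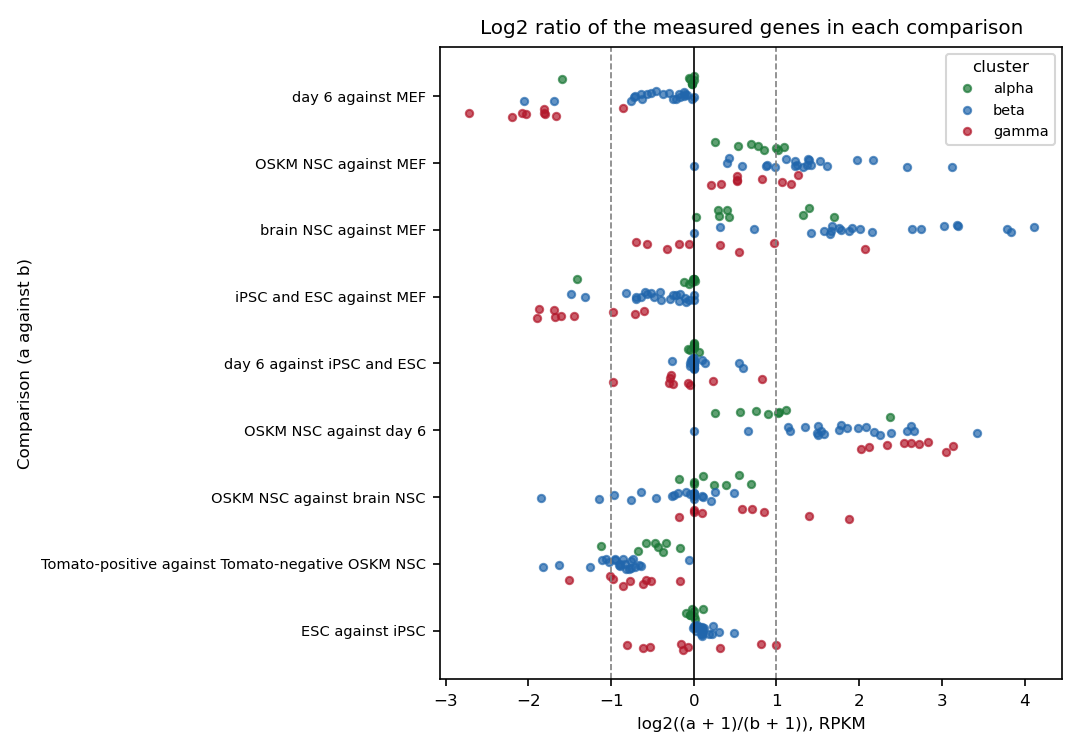
Log2 ratio of each of the 39 genes in 9 comparisons, 1 point per gene and comparison, coloured by cluster, with dashed lines at 2-fold. With 2 libraries on a side the ratio nearer 0 is drawn, and 0 where they differ in sign. The points lie left of 0 for day 6 against MEF and right of 0 for OSKM NSC against MEF and against day 6.

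Day 6 against MEF asks what the sorted intermediate cells had kept of the fibroblast pattern. Of the 39 genes, 12 reached 2 RPKM, and 11 of these were at least 2-fold lower and 0 higher, where 31.3% of 15976 tested genes were lower and 22.5% higher. The 11 were Pcdhac2, 2 beta genes (Pcdhb17 and Pcdhb22) and 8 of 9 gamma genes. Pcdhgc5 had the lowest log2 ratio, -2.72, followed by Pcdhga12 at -2.20 and Pcdhgc4 at -2.08. Pcdhgc3 was the exception, with a log2 ratio of -0.86, at 54.7% of its MEF level. Its row shares bases with BC037039, whose part in that level was not tested. Restricted to exon rows that share no base with another gene, Pcdhgc3 is left out of all comparisons. On these rows 8 of 8 tested genes were lower at day 6, beside 31.3% of all tested genes. The median log2 ratio over all 39 was -0.46, against 0 over all 29417 genes.

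Read counts showed the same direction over the beta genes, of which only Pcdhb17 and Pcdhb22, already counted above, reached the 2 RPKM floor. The level in MEF was above that at day 6 for 21 of 22 beta genes. For 19 of them the interval of the day 6 to MEF ratio lay wholly below 1. No share over all genes was computed for these 2 counts. Pcdhb3, with 93 reads in MEF and 0 at day 6, was at least 31.7-fold lower. Pcdhb7, with 87 reads and 0, was at least 29.6-fold lower. Pcdhb15, with 90 and 6 reads, was 15.3-fold lower (6.78 to 42.9). The day 6 sum was 3.64% of the MEF sum for alpha, 16.1% for beta and 36.4% for gamma. Without the C-type genes the order was the reverse for alpha and gamma, with 41.9% for alpha, on 0.195 RPKM in MEF, and 14.8% for gamma. The fibroblast markers moved with these genes, from 40402 to 380 RPKM, and the leukocyte markers from 4501 to 30.4, and their part in the difference was not tested.

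The pluripotent lines differed from MEF in the same direction. In iPSC and ESC, 0 of the 12 tested genes were at least 2-fold higher than in MEF and 9 were lower, where 20.6% of 17057 tested genes were higher and 19% lower. They were Pcdhac2, Pcdhb17, Pcdhb22, Pcdhga3, Pcdhga9, Pcdhgb6, Pcdhgc3, Pcdhgc4 and Pcdhgc5. Pcdhgb6 had the lowest log2 ratio, -1.90, followed by Pcdhgc4 at -1.87 and Pcdhga9 at -1.69. The remaining 3, Pcdhga8, Pcdhga11 and Pcdhga12, passed 2-fold in ESC but not in iPSC. There they stood at 52.1%, 44.0% and 60.4% of the MEF level. Their rows share 20.1%, 52.4% and 14.3% of bases with other genes on either strand, whose part in these levels was not tested. On exon rows that share no base with another gene, 8 of 8 tested genes were lower in both lines, beside 19.0% of all tested genes. Pcdhgc3 stood at 16.7% of the MEF level in iPSC and 30.3% in ESC.

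Few clustered genes reached the 2 RPKM floor in day 6 cells or the pluripotent lines. Of 5 tested genes 0 were at least 2-fold higher and 0 lower at day 6 than in both iPSC and ESC, where 9.25% of 16319 tested genes were higher and 19.1% lower. Against iPSC alone, Pcdhgc3 was higher at day 6 and Pcdhga8 and Pcdhga12 lower, beside 16.1% higher and 26.3% lower of all tested genes. All these rows share bases with other genes, whose part was not tested. Against ESC alone, Pcdhgc5 was lower, beside 30.8% of all tested genes. Pcdhgc3 also passed 2-fold against both lines under median-of-ratios scaling, beside 13.1% higher of all tested genes.

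Read counts, taken for genes above and below that floor, showed differences in both directions. Against iPSC the interval of the day 6 ratio lay above 1 in 7 and below 1 in 1 of 19 beta genes, and above 1 in 2 and below 1 in 7 of 9 gamma genes. Against ESC it lay above 1 in 4 and below 1 in 9 of 20 beta genes, and above 1 in 2 and below 1 in 5 of 9 gamma genes. Pcdhb18 was 11.3-fold (6.75 to 20.4) higher at day 6 than in iPSC and 5.58-fold (3.58 to 9.08) higher than in ESC. Pcdhb20 was 25.2-fold (11.3 to 70.1) and 4.46-fold (2.86 to 7.23) higher. Pcdhgc3 was 3.28-fold (3.11 to 3.46) and 1.81-fold (1.72 to 1.90) higher.

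ESC against iPSC gave 0 genes at least 2-fold higher and 0 lower of 5 tested, where 14.5% of 15570 tested genes were higher and 7.68% lower. Pcdhgc5 was just under the threshold at a log2 ratio of 0.999, with 4.99 RPKM in ESC and 1.998 in iPSC, a ratio of 2.50 (2.17 to 2.89) on the RPKM scale. Pcdhga8 had the lowest ratio, -0.81, with 0.850 RPKM in ESC and 2.25 in iPSC. Its row shares 20.1% of its bases with other genes, whose part was not tested. The beta genes were higher in ESC for 20 of 22, and in 14 the interval of the ratio lay above 1, all at low levels of at most 0.668 RPKM. Pcdhb17 was 6.19-fold higher in ESC (3.56 to 11.4), on 70 reads against 16. Pcdhb9 had 22 reads in ESC and 0 in iPSC, at least 10.4-fold higher. Fibroblast and feeder markers moved with them, from 618 RPKM in iPSC to 5068 in ESC, and MEF beta levels are higher than those of either line. The part of feeder RNA in this difference was not tested.

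Both OSKM NSC were above the day 6 cells in all clustered genes that reached 2 RPKM in a compared library. At day 6 only Pcdhgc3 reached that level. The other tested genes entered the count through an OSKM NSC library, which makes passing likely. Of the 39 genes 32 reached 2 RPKM, and 32 were at least 2-fold higher and 0 lower, where 24.4% of 16138 tested genes were higher and 11.2% lower. These were 3 alpha, 20 beta and 9 gamma genes. Pcdhb11 had the highest log2 ratio, 3.42, followed by Pcdhgc4 at 3.14 and Pcdhgc5 at 3.05. The 7 genes not tested were Pcdha1, Pcdha10, Pcdha11, Pcdha12, Pcdhac1, Pcdhb1 and Pcdhb13. The median over all 39 was 1.85.

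Set against the fibroblasts, most of the genes that passed were beta genes, which were also most of those tested. In MEF only 2 beta genes but all 9 gamma genes reached 2 RPKM. The other tested beta genes entered the count through an OSKM NSC library, which makes passing likely. The counts therefore do not rank beta against gamma. In OSKM NSC against MEF, 19 of 32 tested genes were at least 2-fold higher and 0 lower, where 17.8% of 16449 tested genes were higher and 15.5% lower. The 19 were 15 of 20 beta genes, 3 of 9 gamma genes (Pcdhgb6, Pcdhgc3 and Pcdhgc4) and 1 of 3 alpha genes, Pcdha9. The median log2 ratio over all measured genes of a cluster was 1.28 for beta, 0.81 for alpha and 0.53 for gamma. The added 1 RPKM holds down the ratio of alpha genes, which are low everywhere, so these medians do not rank alpha against beta. On the RPKM scale Pcdha2 was 184-fold (50.5 to 1523) higher in Tomato-negative and 55.7-fold (14.6 to 473) higher in Tomato-positive OSKM NSC than in MEF, on 2 MEF reads. Pcdhb11 had the highest ratio, 3.13, followed by Pcdhb10 at 2.58 and Pcdhb6 at 2.17.

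With Tomato-negative OSKM NSC alone set against MEF 31 of 32 tested genes were higher, beside 24.5% of all tested genes. With Tomato-positive alone it was 14 of 23, beside 27.0%. Under median-of-ratios scaling, which lowers the Tomato-positive library most, 11 genes were higher, beside 10.9%, and all 11 were beta genes. On the RPKM scale Pcdhb11 was 64.0-fold (49.1 to 85.2) higher in Tomato-negative OSKM NSC than in MEF and 31.6-fold (24.0 to 42.4) higher in Tomato-positive. Pcdhb6 was 107-fold (67.6 to 181) and 25.9-fold (16.0 to 44.6) higher. Pcdhgc3 was 4.86-fold (4.75 to 4.98) and 2.41-fold (2.34 to 2.49) higher. For the ordinary gene Pcdhga3 the same ratios were 1.35 (1.21 to 1.51) and 1.18 (1.03 to 1.37). The neural stem cell markers moved with these genes, from 72.1 RPKM in MEF to 7948 and 11974, and the fibroblast markers the other way, and the part of either in the difference was not tested.

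In brain NSC against MEF, too, most of the genes that passed were beta genes. Apart from Pcdhb17 and Pcdhb22, the tested beta genes entered the count through brain NSC, which makes passing likely. All 9 gamma genes reached 2 RPKM in MEF. Of 31 tested genes 22 were at least 2-fold higher and 0 lower, where 21.8% of 16075 tested genes were higher and 22.3% lower. They were 19 of 20 beta genes, Pcdha2 and Pcdhac2, and of the gamma genes only Pcdhgc3. Pcdhb9 had the highest log2 ratio, 4.11, followed by Pcdhb5 at 3.83 and Pcdhb10 at 3.79. Pcdhgc3 had a log2 ratio of 2.07, and Pcdhgc4 was just below the threshold at 0.97. The median over a cluster was 1.89 for beta, 0.41 for alpha and -0.06 for gamma, with the same limit for alpha: Pcdha2 was 123-fold (33.5 to 1028) higher on the RPKM scale. Among the 6 ordinary gamma genes 5 had a negative ratio, from -0.70 for Pcdhgb6 to -0.06 for Pcdhga8, and Pcdhga3 was at 0.55. Brain NSC and OSKM NSC were both set against the same MEF library, so the agreement of the 2 comparisons is not independent.

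The comparison of OSKM NSC with brain NSC asks how far converted cells match primary ones. Of 32 tested genes 2 were at least 2-fold higher in OSKM NSC, Pcdhgb6 and Pcdhga11, and 2 were lower, Pcdhb9 and Pcdhb8, where 8.15% of 15564 tested genes were higher and 5.08% lower. The log2 ratios were 1.87 for Pcdhgb6, 1.39 for Pcdhga11, -1.85 for Pcdhb9 and -1.15 for Pcdhb8. Pcdhb9 was 4.21-fold (3.81 to 4.65) higher in brain NSC than in Tomato-negative and 9.75-fold (7.998 to 11.98) higher than in Tomato-positive OSKM NSC. Pcdhb8 was 2.58-fold (2.25 to 2.96) and 4.81-fold (3.81 to 6.14) higher. Pcdhgb6 was 8.07-fold (7.14 to 9.16) higher in Tomato-negative and 4.34-fold (3.78 to 4.99) higher in Tomato-positive OSKM NSC than in brain NSC. Pcdhga11 was 8.88-fold (7.92 to 9.98) and 2.98-fold (2.60 to 3.41) higher.

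The reads of Pcdhga11 come with those of a neighbour on the other strand. The gene Gm26672 shares bases with its exon row, of which 52.4% lie in other genes, and was at 36.1 RPKM in Tomato-negative OSKM NSC, 21.1 in Tomato-positive OSKM NSC and 8.74 in brain NSC. Its part in the difference was not tested. Restricted to exon rows that share no base with another gene, 1 gene remained higher in OSKM NSC, Pcdhgb6, beside 8.49% of all tested genes.

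The 2 OSKM NSC libraries did not stand in the same place. With Tomato-negative OSKM NSC alone set against brain NSC 10 of 32 tested genes were higher and 2 lower. Of all tested genes 10.2% were higher and 7.03% lower. Among the 10 were Pcdhb6 at 6.43-fold (5.52 to 7.54) and Pcdhb11 at 2.19-fold (2.04 to 2.36). With Tomato-positive OSKM NSC alone 9 of 31 tested genes were lower and 2 higher, beside 11.6% lower and 22.6% higher of all tested genes. The 9 were all beta genes, among them Pcdhb5 at 5.90-fold (5.09 to 6.87) and Pcdhb2 at 5.86-fold (4.78 to 7.25) in favour of brain NSC. When both OSKM NSC had to pass, the shares of all tested genes were 8.15% higher and 5.08% lower. Pcdhac2 was close in Tomato-negative OSKM NSC and brain NSC, with a ratio of 0.867 (0.769 to 0.977), as was Pcdhgc3 with a ratio of 1.15 (1.13 to 1.17). Pcdhb17 at 0.966 (0.889 to 1.05) and Pcdhb10 at 0.936 (0.864 to 1.01) differed by less than counting error in those 2 libraries.

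**Figure D5:**
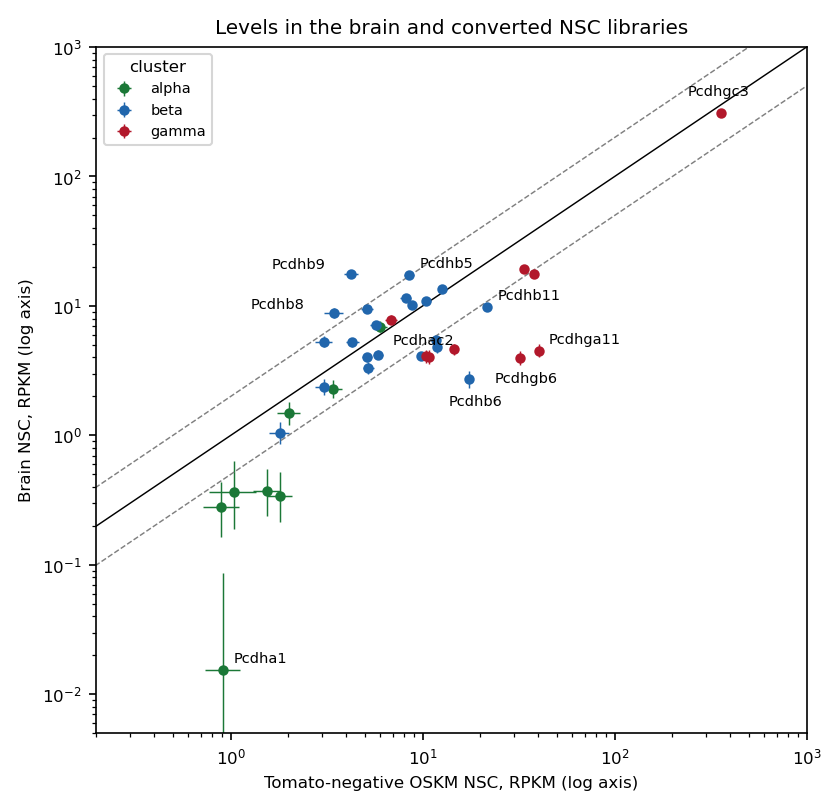
Level in brain NSC against level in Tomato-negative OSKM NSC, in RPKM on log axes, 1 point per gene with 95% counting intervals. The solid line marks equal levels and the dashed lines 2-fold. Pcdhb1, at 0 in brain NSC, is left out. Pcdhb9, Pcdhb8 and Pcdhb5 lie above the upper dashed line, and Pcdhga11, Pcdhgb6, Pcdhb6 and Pcdhb11 are among the points below the lower one.

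The choice of beta genes was shared by the OSKM NSC libraries more than with brain NSC. Over the 22 beta genes Pearson's r between levels was 0.943 for Tomato-positive with Tomato-negative OSKM NSC, 0.585 for Tomato-negative OSKM NSC with brain NSC and 0.551 for Tomato-positive OSKM NSC with brain NSC. Spearman's rho was 0.939, 0.353 and 0.363. These are descriptions over genes, which share libraries and are not independent. The OSKM NSC are both B6/129 and brain NSC are BDF2, so strain and origin cannot be told apart.

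Every one of the 39 genes was lower in Tomato-positive than in Tomato-negative OSKM NSC. Of 32 tested genes 9 were at least 2-fold lower and 0 higher, where 5.55% of 15145 tested genes were lower and 9.86% higher. The 9 were Pcdha2, 6 beta genes (Pcdhb2, Pcdhb4, Pcdhb5, Pcdhb6, Pcdhb10 and Pcdhb16), Pcdhga11 and Pcdhgc3. Pcdhb6 had the lowest log2 ratio, -1.82, followed by Pcdhb2 at -1.63 and Pcdhga11 at -1.51. The median over all 39 was -0.78, against 0.19 over the tested genes and 0 over all genes measured. The interval of the ratio lay below 1 in 7 of 8 alpha, 21 of 22 beta and 8 of 9 gamma genes. Neither for these counts nor for the direction of all 39 was a share over all genes computed.

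The difference was close to even across the clusters. Tomato-negative exceeded Tomato-positive OSKM NSC 1.804-fold in the alpha sum, 2.27-fold in the beta sum and 1.98-fold in the gamma sum. Pcdhga3 differed least among genes at 2 RPKM or more, with 5.99 and 6.83 RPKM. With the libraries scaled to equal totals 15 genes passed 2-fold, beside 7.46% lower of all tested genes. With median-of-ratios scaling it was 16, beside 8.18%. The fibroblast and feeder markers moved the other way, 2370 RPKM in the Tomato-positive and 207 in the Tomato-negative OSKM line, and 11 of those 12 markers were at least 2-fold higher in Tomato-positive cells. Epithelial markers were higher there too, 3 of 5, with a median log2 ratio of 2.03. Of 11 neural stem cell markers 4 were lower and 0 higher, with a median of -0.97. The part of these cell types in the difference was not tested.

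Genes related to the clusters by family, control or place were read from 4 lists. The 12 non-clustered protocadherins, which lie on other loci, were low at day 6 and in iPSC and ESC like the clustered genes, but about as high in MEF as in the OSKM NSC. They summed to 91.2 RPKM in MEF, 4.98 at day 6, 86.2 in the Tomato-positive and 95.8 in the Tomato-negative OSKM line, 166 in NSC from brain, 2.64 in iPSC and 6.14 in ESC. At day 6 against MEF 6 of 7 tested were lower and 0 higher, beside 31.3% and 22.5% of all tested genes. Against MEF, 3 of 9 were higher in OSKM NSC and 2 lower, beside 17.8% and 15.5%, and the median log2 ratio was 0.13. In OSKM NSC against day 6, 7 of 8 were higher and 0 lower, beside 24.4% and 11.2%. Pcdh18 was highest in MEF, where it gave 52.1 of the 91.2 RPKM. It stood at 21.3 RPKM in the Tomato-positive and 6.35 in the Tomato-negative OSKM line. Without it the MEF sum was below that of either OSKM line. Pcdh10 and Pcdh15 were highest in brain NSC, at 37.2 and 17.2 RPKM, against 13.1 and 0.272 in Tomato-negative OSKM NSC.

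The 20 chromatin regulators known to act at the clusters differed mainly between MEF and the other libraries. At day 6 against MEF 9 of 20 were at least 2-fold higher and 0 lower, beside 22.5% and 31.3% of all tested genes. Dnmt3b, a de novo DNA methyltransferase, was at 1.01 RPKM in MEF, 22.7 at day 6, 6.62 in the Tomato-positive and 2.28 in the Tomato-negative OSKM line, 2.30 in NSC from brain, 24.1 in iPSC and 38.2 in ESC. Smchd1, a structural maintenance protein that represses the clusters, was at 26.0 RPKM in MEF, 65.4 at day 6, 72.1 in the Tomato-positive and 70.02 in the Tomato-negative OSKM line, 53.4 in NSC from brain, 34.9 in iPSC and 44.9 in ESC. In OSKM NSC against day 6, 0 of 20 were higher and 2 lower, beside 24.4% and 11.2% of all tested genes. They were Dnmt3b and Tet2, a DNA demethylation enzyme. Ctcf was at 29.3 RPKM in MEF, 58.2 at day 6, 98.8 in the Tomato-positive and 101 in the Tomato-negative OSKM line, 63.3 in NSC from brain, 93.0 in iPSC and 82.3 in ESC. In OSKM NSC against brain NSC, 0 of the 20 passed 2-fold in either direction, beside 8.15% higher and 5.08% lower of all tested genes.

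The 18 genes for partners of the proteins split. In OSKM NSC against MEF 6 of 17 tested were higher, among them the kinases Fyn and Ptk2, and 1 lower, Ptk2b, beside 17.8% and 15.5% of all tested genes. Fyn was at 34.7 RPKM in MEF, 86.4 at day 6, 223 in the Tomato-positive and 447 in the Tomato-negative OSKM line, 451 in NSC from brain, 19.7 in iPSC and 19.0 in ESC. Ptk2b, a kinase that protocadherins are known to inhibit, was at 24.1 RPKM in MEF, 30.1 at day 6, 2.38 in the Tomato-positive and 0.0851 in the Tomato-negative OSKM line, 0.0165 in NSC from brain, 6.87 in iPSC and 22.8 in ESC. Its 3 lowest values were those of the 3 NSC libraries.

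The list of neighbouring genes around and between the clusters holds 12 genes. In OSKM NSC against MEF 0 of 11 tested were at least 2-fold higher and 1 lower, Arap3, beside 17.8% and 15.5% of all tested genes. In brain NSC against MEF the count was the same, beside 21.8% and 22.3%. Taf7, which lies between the beta and gamma clusters, was at 6.64 RPKM in MEF, 18.5 at day 6, 14.5 in the Tomato-positive and 12.2 in the Tomato-negative OSKM line, 8.10 in NSC from brain, 104 in iPSC and 88.6 in ESC. Its highest levels were in the 2 pluripotent lines, in which 4 and 3 of the 39 clustered genes reached 2 RPKM.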

How the data were processed

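Per the labels' protocols, libraries were made with the TruSeq RNA v2 kit, which does not mark strand. Per the submitters' processing notes the build was mm10 and the tools were TopHat2 2.0.10, Bowtie, CASAVA 1.8.2 and bedtools, with no role given for each. The authors deposited 1 table of RPKM values for 279252 exon rows in 7 libraries, and how they counted reads over exons is not given in the sources used here. Exon rows were matched to GENCODE M21 (GRCm38), which placed 269882 of them, and the 266044 rows with under 50% of their bases in another gene of the same strand were averaged per gene, weighted by length. Each measured clustered protocadherin gene had 1 such row. Pcdha10 was identified by its gene identifier ENSMUSG00000007440, which GENCODE M21 names Pcdha11.

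Ratios were log2((a + 1)/(b + 1)), with a floor of 2 RPKM in at least 1 compared library and a threshold of 2-fold. Between 96.2% and 96.6% of small values were whole multiples of 1 read, which gave the depth. Read counts of a clustered gene used the smallest length, from 1000 bases, at which all 7 libraries held whole reads. That length equalled the annotated exon length in 11 of 39 rows. Where it is shorter than the true length, the read counts are too low. From the read counts and the depth came exact 95% Poisson intervals for levels and conditional binomial intervals for ratios, with 3 reads as the floor of a 0. Depth was not used for any call. No p-value was computed, because each group has 1 library.

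The genes and lists were chosen with earlier results of these data known. Named genes were, in every library, the 3 highest of each cluster; the C-type genes; in each comparison the 3 highest and 3 lowest ratios past 2-fold; the gene with the widest range in each cluster; up to 4 genes of each related list; and the cell type markers. Other clustered genes were described after their values were seen. The alternatives were other scalings, pseudocounts, floors and exon rules and, added after seeing the data, exon rows without shared bases and each of 2 libraries left out. Python 3.11.15, numpy 2.4.6, pandas 2.3.3, scipy 1.17.1 and matplotlib 3.10.9 were used, and the calculations were tested on simulated data.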

Additional observations from a re-analysis of the deposited data

How the results depend on the processing

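Of 146 alternative values of the 18 counts, 131 stayed within 1.5 times the reported count and 15 moved. Several of the 18 counts were 0, and a 0 that remained 0 was scored as staying. A change of direction was not scored. With median-of-ratios scaling, 11 genes in place of 19 were higher in OSKM NSC than in MEF, 1 gene in place of 0 (Pcdhgc3) was higher at day 6 than in iPSC and ESC, and 16 in place of 9 were lower in Tomato-positive than in Tomato-negative OSKM NSC. Scaling to equal totals gave 15 in that last comparison, beside 7.46% of all tested genes. A pseudocount of 0.25 RPKM also gave 16 there, beside 6.70% of all tested genes. With it, 1 gene (Pcdhga12) was lower at day 6 than in iPSC and ESC, beside 22.5%. In ESC against iPSC 1 gene was higher (Pcdhgc5) and 1 lower (Pcdhga8), beside 16.4% and 8.82%. On exon rows with no shared base, 1 gene in place of 2 was higher in OSKM NSC than in brain NSC, since the row of Pcdhga11 was left out. Of all tested genes 8.49% were higher on such rows. Without the Tomato-positive library, 31 genes were higher in OSKM NSC than in MEF and 10 higher than in brain NSC, beside 24.5% and 10.2% of all tested genes. Without the Tomato-negative library, 9 were lower than in brain NSC, beside 11.6%. For day 6 against the pluripotent lines, leaving out iPSC gave 1 gene lower, beside 30.8% of all tested genes. Leaving out ESC gave 1 higher and 2 lower, beside 16.1% and 26.3%. The cause of the other changes was not tested.

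Over all tested genes, median-of-ratios scaling changed the higher and lower shares from 17.8% and 15.5% to 10.9% and 19.7% in OSKM NSC against MEF, from 24.4% and 11.2% to 16.2% and 17.7% in OSKM NSC against day 6, from 9.25% and 19.1% to 13.1% and 14.8% in day 6 against iPSC and ESC, from 8.15% and 5.08% to 6.27% and 6.64% in OSKM NSC against brain NSC, and from 9.86% and 5.55% to 6.69% and 8.18% in Tomato-positive against Tomato-negative OSKM NSC. Scaling to equal totals changed them from 14.5% and 7.68% to 11.2% and 10.7% in ESC against iPSC. The median log2 ratio of all tested genes moved by over 0.1 with scaling to equal totals in day 6 against MEF (from -0.13 to 0.04), brain NSC against MEF (from 0.14 to 0.31), the OSKM NSC lines (from 0.19 to 0.03) and ESC against iPSC (from 0.18 to -0.03). No paired analysis was possible because each group has 1 library. Tomato-positive OSKM NSC, at 19 megareads, is the shallowest library and gives the widest counting intervals for a given level.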
